A study of Mus musculus with 16 samples.

Results

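The response to lipopolysaccharide (LPS, a cell wall component of Gram-negative bacteria) was examined in mouse bone marrow derived macrophages (BMDMs) matured with M-CSF on noTC dishes, which are polystyrene dishes without the surface treatment that promotes adherence. The comparison set the 2 M-noTC-LPS libraries against the 2 M-noTC libraries, 4 of the 16 RNA-seq libraries in the series, and was described across the 12514 genes that passed a filter on low counts out of 22287 in the gene table. Cells came from the bone marrow of C57BL/6J mice aged 8 weeks, matured for 7 days with M-CSF at 50 ng/ml, and were then given vehicle or LPS at 100 ng/ml for 3 h. The series also holds the same pairs of vehicle and LPS libraries for M-CSF cells on treated dishes (M-TC) and for cells matured with GM-CSF at 20 ng/ml on either dish (GM-noTC and GM-TC). The study calls the 2 libraries of a group biological replicates without saying whether they came from separate mice or separate cultures, so the p-values given here measure the spread between these libraries only.

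LPS is delivered by CD14 to the TLR4 and MD-2 complex. From there, a first branch runs through MyD88 to the NF-kB and AP-1 transcription factors, which drive inflammatory cytokine and chemokine genes, and another runs through TRIF to IRF3 and the interferon-beta gene, whose product acts back on the cell through the interferon receptor to raise interferon stimulated genes. In macrophages a first set of genes is transcribed within minutes, among them inhibitors of the pathway itself, and a later set needs new proteins or interferon, so that a sample taken after a few hours holds both.

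Motifs of both branches could be read in the promoters of several of the genes described below. Of 40 genes among the largest rises, the largest falls, the most abundant rises and the rises furthest below those in M-TC, 28 had a promoter among those kept here, and the 7 that held a kB or interferon motif are shown. Promoters on a single chromosome were left out of these counts, but not of the shares over all promoters given below. The windows shown here were taken from RefSeq promoters on mouse build GRCm38.p6, run 5′ to 3′ on the strand of the gene and end at the base before the annotated transcription start, and carry a kB motif, the site of NF-kB, searched as GGGA and TTCC with any 2 bases between them, or an interferon stimulated response element (ISRE), searched as GAAA and GAAA with any 2 bases between them, each on both strands of the 250 bases before the start. Capitals mark these motifs and, in Cxcl3, a TATAAA box on the forward strand within 60 bases of the start.
Il6, chr5:30013060-30013113, plus strand: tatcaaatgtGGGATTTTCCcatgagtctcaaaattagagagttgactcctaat
Cxcl3, chr5:90786018-90786100, plus strand: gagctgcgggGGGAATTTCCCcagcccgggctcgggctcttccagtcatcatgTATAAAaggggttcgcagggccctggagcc
Ifnb1, chr4:88522795-88522920, minus strand: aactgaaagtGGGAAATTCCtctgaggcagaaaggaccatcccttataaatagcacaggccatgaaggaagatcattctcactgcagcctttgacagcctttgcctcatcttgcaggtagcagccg
Cxcl10, chr5:92348890-92349112, minus strand: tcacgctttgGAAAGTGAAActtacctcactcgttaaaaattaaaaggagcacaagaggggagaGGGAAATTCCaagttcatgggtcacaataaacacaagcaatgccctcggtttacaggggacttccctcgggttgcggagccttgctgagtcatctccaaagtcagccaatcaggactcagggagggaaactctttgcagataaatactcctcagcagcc
B2m, chr2:122147538-122147686, plus strand: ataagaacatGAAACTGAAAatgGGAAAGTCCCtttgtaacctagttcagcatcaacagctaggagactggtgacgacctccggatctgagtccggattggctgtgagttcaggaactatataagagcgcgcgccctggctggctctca
Ifit1, chr19:34640775-34640888, plus strand: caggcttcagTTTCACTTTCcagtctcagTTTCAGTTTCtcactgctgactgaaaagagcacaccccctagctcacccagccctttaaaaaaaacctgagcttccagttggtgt
Rsad2, chr12:26456453-26456582, minus strand: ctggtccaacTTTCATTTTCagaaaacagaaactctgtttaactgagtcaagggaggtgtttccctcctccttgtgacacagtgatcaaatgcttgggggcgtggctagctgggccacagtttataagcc
The kB motif begins 44 bases upstream of the start in Il6, 116 in Ifnb1, 159 in Cxcl10 and 126 in B2m, and in Cxcl3 overlapping matches on both strands begin 73 and 72 bases upstream. The ISRE begins 120 bases upstream in Rsad2, 213 in Cxcl10 and 139 in B2m, and Ifit1 holds a pair at 104 and 85 bases. Of all 32851 promoters in the table, 1.21% hold this kB motif and 2.98% this ISRE, and 2.87% hold a TATAAA box in that position. The share among responding genes was not compared with this, because only 78.8% of the genes that rose had a promoter in the table, under the 80% set as the minimum, and a match is a description of letters, not evidence of binding.

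The libraries held 21403313 and 31458363 counts in M-noTC and 23149399 and 24321576 in M-noTC-LPS, within the 17527802 to 31458363 of the series, so that 3 counts, used as the floor for a gene without reads, came to between 0.0697 and 0.154 CPM (counts scaled to library size with TMM factors) in these 4. Replicates differed by more than counting noise but by little, with a common coefficient of variation of 4.75%. All 9 macrophage markers were detected, led by Lyz2 at 14943 to 16604 CPM. Of the 10 neutrophil markers, Elane, Mpo, Ly6g and Retnlg had no count and the sum over the list lay between 0.549 and 2.16 CPM. The 9 T and NK cell markers summed to at most 0.472 CPM, the 8 mast cell and basophil markers to at most 0.0998 CPM and the 10 muscle markers to at most 0.359 CPM. Among B cell markers, Ighm fell from 69.6 and 74.2 to 35.4 and 33.3 CPM while Pax5 stayed at or under 0.0499 CPM, and among the stromal ones, Pdgfrb rose from 0.270 and 0.836 to 20.3 and 22.7 CPM. The other stromal markers, such as Col1a1, Dcn and Lum, stayed at or under 0.975 CPM in all 4 libraries. These are bulk samples, in which fewer cells of a type and less RNA per cell cannot be told apart.

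At 3 h, genes for cytokines, chemokines, interferon stimulated proteins, feedback inhibitors and antigen presentation on MHC class I stood far above vehicle, while genes for DNA replication, mitosis, the circadian clock and many zinc finger proteins stood below it. In all, 1984 of the 12514 genes tested (15.9%) rose and 2042 (16.3%) fell, where rose and fell here mean an adjusted p under 0.05 in edgeR's quasi-likelihood test with Benjamini-Hochberg adjustment and a change above 2-fold. The groups did not overlap for 1977 of the genes that rose and 2041 of those that fell, compared with 85.7% of all genes tested. The rises were larger than the falls, with a median log2 fold change of 2.06 against -1.69, and 191 genes rose above 32-fold compared with 51 that fell that far. Genes that rose held 14.3% and 14.2% of all counts in the vehicle libraries and 42.5% and 43.3% in the LPS libraries, whereas genes that fell went from 6.62% and 6.52% to 1.25% and 1.18%. In the vehicle libraries the genes that fell had a median level of 9.31 CPM, compared with 17.6 CPM for those that rose and 20.7 CPM for the rest, and in the LPS libraries one of 2.56 CPM compared with 81.3 and 19.8 CPM.

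A further 2567 genes were higher and 2454 lower by less than 2-fold at an adjusted p under 0.05. The scale that sets these small changes rests on TMM, which assumes that most genes do not change. The median log2 fold change of all genes tested was -0.0061 with TMM and -0.73 when libraries were scaled by total counts alone, and 1165 genes then rose and 4664 fell. Every change below is therefore relative to the typical gene, and the smaller changes depend on this choice. Among the genes named below, the rises of Axl, B2m, Cd14, Dld, H2-Ab1, Hspa5, Mcm10, Mertk, Oas3, Pde2a, Slc2a1, Socs2 and Spi1 came under 2-fold with total counts alone, and Fos, Idh1 and Myc then fell by more than 2-fold. The small positive values of Abca1, Ccl6, Clock, Gapdh, H2-Aa, Klf4, Lyz2, Mki67, Ticam1 and Tpi1, none of which passed 2-fold, turned negative.

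**Figure D1:**
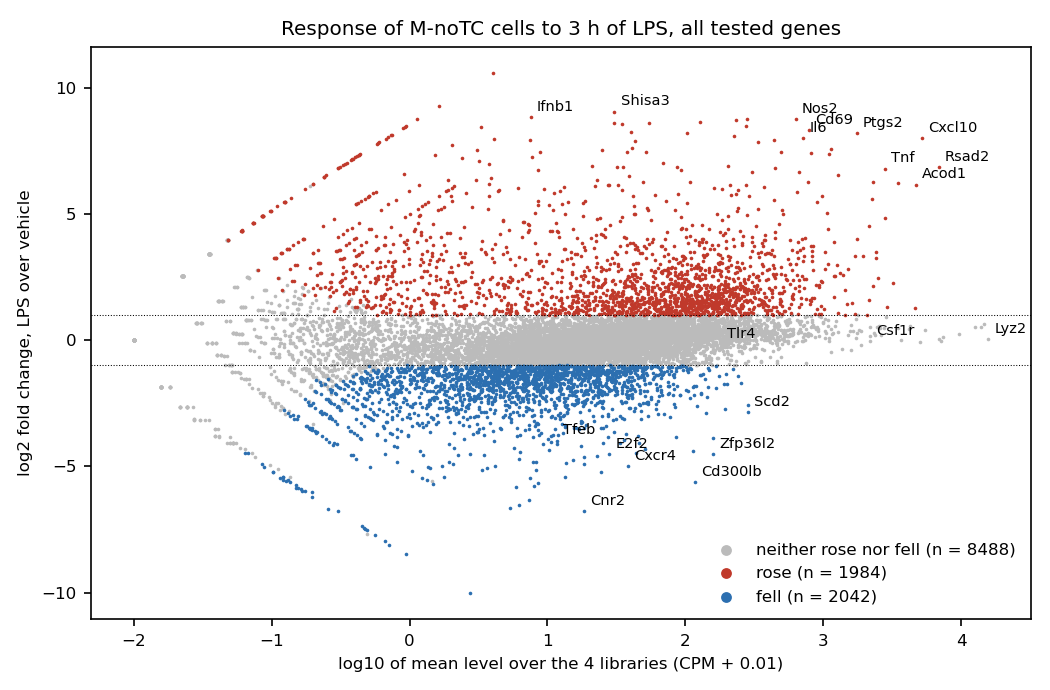
Log2 fold change of M-noTC-LPS over M-noTC (vertical axis) against the log10 mean level over the 4 libraries in CPM plus 0.01 (horizontal axis), 1 point per tested gene, with genes that rose in red, genes that fell in blue and the rest in grey. Rises reach above 8 on the log2 scale for Nos2, Shisa3 and Ifnb1, the deepest labelled fall is that of Cnr2, and Csf1r, Lyz2 and Tlr4 lie near 0.

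The receptor for LPS itself changed little. Tlr4 stood at 192 CPM in both vehicle libraries and at 172 and 173 CPM upon LPS, a log2 fold change of -0.15. Its coreceptor gene Cd14 rose from 547 and 569 to 1783 and 1893 CPM. Of the 21 genes for the receptor complex and the kinases and adaptors next to it, 8 rose and none fell, with a median log2 fold change of 0.59 that turned to -0.14 with scaling by total counts alone. Myd88, the adaptor of the first branch, rose from 70.7 and 70.2 to 320.5 and 325 CPM, and Irak2, a kinase that sustains its signal, from 47.9 and 49.6 to 353 and 372 CPM. By contrast the gene of the other branch's adaptor, Ticam1 (TRIF), was higher by only 0.23 on the log2 scale.

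Receptors for other microbial ligands went in both directions. Of 13 Toll-like and NOD receptor genes, 7 rose and 2 fell. Tlr2, which senses lipoproteins, went from 126 CPM in both vehicle libraries to 752 and 745 CPM, and Tlr3, which senses double-stranded RNA, from 32.4 and 37.0 to 456 and 503 CPM. Ripk2, the kinase that NOD1 and NOD2 signal through, rose the most of the list, from 18.6 and 16.9 to 537 and 557 CPM. Tlr13, a sensor of bacterial ribosomal RNA, fell from 349 and 347 to 133 and 128 CPM, and Tlr5, the flagellin receptor, fell by 2.60 on the log2 scale.

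The 11 genes for NF-kB subunits and their IkB inhibitors all rose, with log2 fold changes between 1.73 for Nfkbid and 5.15 for Nfkbiz. The gene of the classical inhibitor moved more than that of a subunit it holds: Nfkbia, which encodes IkB-alpha, went from 52.0 and 51.5 to 670.2 and 699 CPM, a log2 fold change of 3.73, and Rela from 74.4 and 74.5 to 258 and 257 CPM, one of 1.79. Nfkbiz, which encodes a nuclear IkB protein needed for Il6 and Il12b transcription, rose from 25.9 and 28.9 to 959 and 998 CPM. Of 21 feedback inhibitors, 19 rose. Socs3, which blocks signaling from gp130 receptors, increased from 3.30 and 2.62 to 665 and 680.0 CPM, and Socs1, which blocks interferon receptor signaling, from 0.943 and 1.14 to 138 and 137 CPM. Tnfaip3, which encodes the ubiquitin-editing enzyme A20, reached 1756 and 1771 CPM from 40.3 and 39.3 CPM. The gene for the MAP kinase phosphatase Dusp1 did not pass the 2-fold threshold, at 8.93 and 9.27 CPM before and 17.8 and 17.3 CPM after.

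The immediate early and AP-1 genes were mixed at this time. Of the 16 tested, 6 rose and 1 fell, with a median log2 fold change of 0.80. Junb rose from 38.4 and 40.4 to 256 and 259 CPM, and Maff and Batf rose by 4.32 and 3.42 on the log2 scale. Fos stood lower, at 17.04 and 13.6 CPM compared with 28.7 and 30.6 CPM, and Myc stood lower as well, at 8.21 and 9.28 CPM compared with 14.4 and 16.1 CPM, both by less than 2-fold. Egr3, a zinc finger factor of the same immediate early class, fell by 1.48 on the log2 scale.

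Cytokine genes rose nearly as a block. Of 26 tested, 24 rose and 1 fell, with a median log2 fold change of 6.09. Tnf (ENSMUSG00000024401) was the most abundant per length, at 5373 and 5705 CPM upon LPS compared with 50.7 and 49.1 CPM, a log2 fold change of 6.80 ± 0.08 (SE, 2 against 2 libraries, adjusted p = 4.6e-25). Il6 went from 6.33 and 5.04 to 1325 and 1544 CPM, Il1b from 14.3 and 12.1 to 1274 and 1378 CPM, and Il1a from 14.9 and 10.4 to 465 and 473 CPM. In each, the lowest LPS library lay far above the highest vehicle library. The subunits that build the IL-12 family rose too: Il12b, shared by IL-12 and IL-23, from 5.59 and 4.39 to 297 and 340.3 CPM, and Il27, the partner of Ebi3 in IL-27, from 1.01 and 1.18 to 440.4 and 491 CPM. Il10, the cytokine that restrains this response, was much lower at 23.5 and 28.6 CPM, up from 0.775 and 0.836 CPM.

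Several cytokine genes were next to absent in vehicle cells, so that their fold rests on few counts. Ifnb1 had 2 counts over both vehicle libraries and 596 over both LPS libraries, at 14.4 and 15.8 CPM, a ratio of 548 with a 95% counting interval of 151 to 4539. Il12a, the other subunit of IL-12, had a ratio of 478 (85.1 to 18970) and Csf2, which encodes GM-CSF, one of 294 (52.1 to 11702). Csf3, which encodes G-CSF, and Il33 had no count in either vehicle library and were at least 13.9-fold and at least 17.1-fold higher upon LPS, taking 3 counts per library as the floor. The single fall was that of Vegfa, the endothelial growth factor, from 72.0 and 76.1 to 9.65 and 11.6 CPM.

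Chemokine genes followed the cytokines, with 20 of 22 rising, none falling, and a median log2 fold change of 5.77. Per kilobase of exon, Ccl3 and Cxcl10 were the 2 most abundant of all genes that rose, at means of 5890.4 and 4607 CPM per kilobase in the LPS libraries. Cxcl10, a ligand of the T cell receptor CXCR3, rose from 42.4 and 38.2 to 10145 and 10604 CPM, and Cxcl9, the gene of another CXCR3 ligand, rose by even more on the log2 scale, by 8.76 from 1.38 and 1.23 to 570.1 and 556 CPM. Cxcl11 rose by 8.56 to 71.1 and 68.0 CPM, but GENCODE lists it as a polymorphic pseudogene, whose allele in C57BL/6 mice is known to be disrupted, so that this RNA is not evidence of a ligand. Ligands that attract neutrophils through CXCR2 rose likewise, Cxcl2 from 13.9 and 12.6 to 1960.1 and 2388 CPM and Cxcl1 from 2.19 and 1.21 to 398 and 497 CPM. Ccl2, which attracts monocytes, went from 21.5 and 18.3 to 1497 and 1571 CPM. Ccl6 hardly moved, at 236 and 243 CPM against 293 and 274 CPM.

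**Figure D2:**
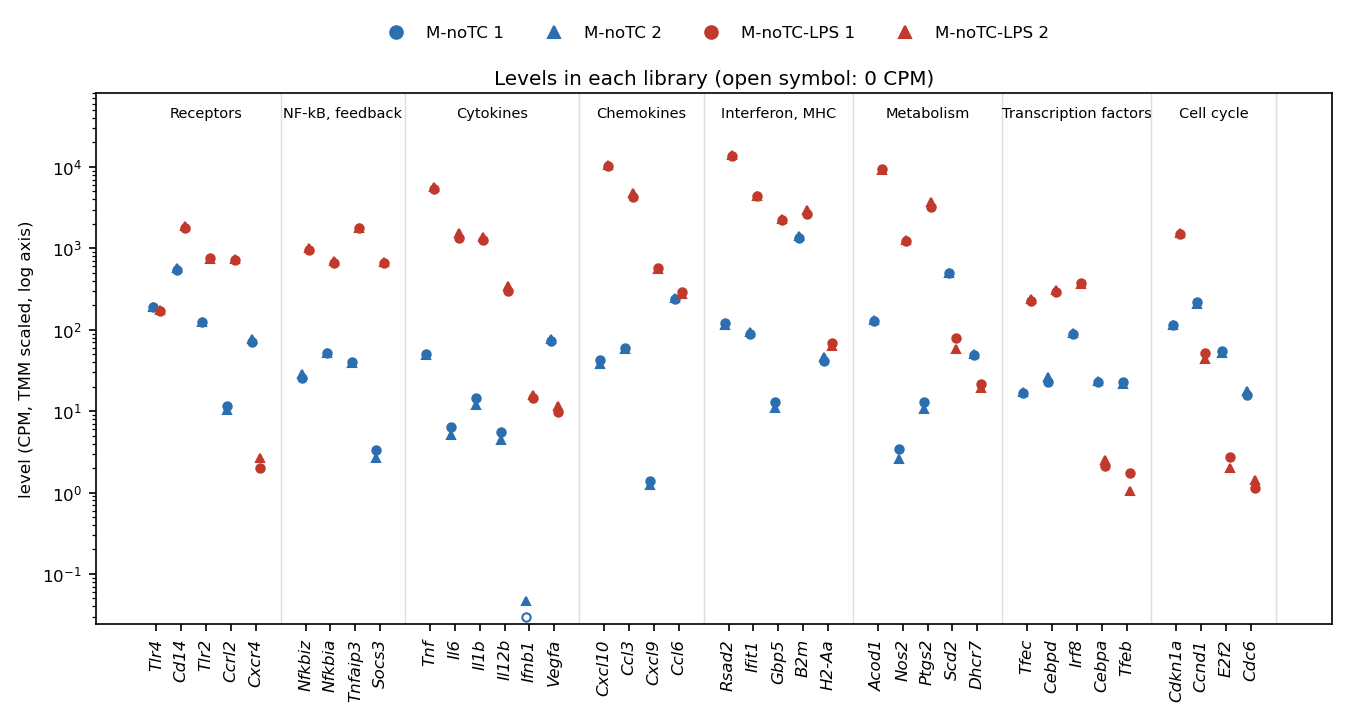
Level of selected genes of the text in each of the 4 libraries, in CPM on a log axis, with M-noTC in blue and M-noTC-LPS in red, circles for replicate 1, triangles for replicate 2 and an open symbol for a library at 0 CPM. The 2 replicates of a group lie close together for nearly every gene, and the groups are apart by up to several orders of magnitude, from Ifnb1 and Nos2 to Tlr4 and Ccl6, which stay close.

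The receptors that read these signals moved less, and in both directions. Of 14 chemoattractant receptor genes, 6 rose and 3 fell. Cxcr4, the CXCL12 receptor that holds cells in bone marrow, fell from 71.0 and 78.1 to 2.002 and 2.69 CPM, and the chemokine receptor genes Cx3cr1 and Ccr2 fell by 2.01 and 1.81 on the log2 scale. Ccrl2, an atypical receptor that presents chemerin, rose from 11.4 and 10.3 to 714 and 745 CPM, and the formyl peptide receptor genes Fpr1 and Fpr2 rose by 4.10 and 5.15. Of 25 cytokine and growth factor receptor genes, 6 rose and 6 fell, compared with 15.9% and 16.3% of all genes tested. Il6ra fell from 67.4 and 70.6 to 4.36 and 6.09 CPM and its partner Il6st fell by 1.004 on the log2 scale, a call lost without M-noTC replicate 2 (-0.92) or M-noTC-LPS replicate 1 (-0.94), while Il6 itself rose. Tnfrsf1b, the second TNF receptor, rose from 235 and 238 to 1889.7 and 1959 CPM, and Il15ra by 4.72. Csf1r, the receptor for the M-CSF in which the cells were grown, stood at 2181 and 2273 CPM before and 2119 and 2183 CPM after. The medians of both receptor lists, 0.68 and 0.36 on the log2 scale, turned to -0.05 and -0.36 with scaling by total counts alone.

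Interferon stimulated genes rose almost without exception. Of 47 tested, 45 rose, none fell and the other 2, Irf9 and Bst2, were higher by just short of 2-fold, with a median over the list of 3.45. Summed over the list they went from 4141 and 4226 CPM to 64641 and 66832 CPM. Rsad2 (ENSMUSG00000020641), which encodes the antiviral enzyme viperin, was the most abundant, going from 120.2 and 115 to 13457 and 13874 CPM, a log2 fold change of 6.86 ± 0.07 (SE, adjusted p = 9.0e-26). Ifit1, which binds foreign RNA ends, rose from 89.9 and 95.1 to 4436 and 4394 CPM, and Gbp5, a guanylate binding protein gene that acts on intracellular bacteria, from 13.1 and 11.1 to 2257 and 2314 CPM. Both Rsad2 and Ifit1 hold the ISRE printed above. Among those that rose, the log2 fold change varied widely, from 1.34 for Oas3 to 7.93 for Ifi205.

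Genes for antigen presentation split by class. For MHC class I, which displays peptides from inside the cell, 18 of 20 rose, with a median of 1.80. The peptide transporter gene Tap1 went from 50.2 and 46.7 to 380.1 and 385 CPM and the shared light chain gene B2m from 1331 and 1433 to 2633 and 2927 CPM, a log2 fold change of 1.01 that went under the threshold without M-noTC replicate 1 (0.97) or M-noTC-LPS replicate 2 (0.93). For MHC class II, which displays engulfed material, 1 of 11 rose, H2-Ab1 at 1.10, and H2-Aa stood at 41.6 and 46.5 CPM before and 68.7 and 63.6 CPM after; the list's median of 0.33 turned to -0.39 with scaling by total counts alone. Of 12 costimulation and adhesion ligand genes, 11 rose. Cd40, which receives help from T cells, went from 5.66 and 6.20 to 583 and 628 CPM, the inhibitory ligand gene Cd274 (PD-L1) from 30.0 and 31.8 to 985 and 993 CPM, and Icam1 from 62.0 and 63.6 to 2072 and 2036 CPM. Cd69, an early activation marker and 1 of the 12 largest rises, went from 4.95 and 4.76 to 1575 and 1554 CPM.

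In metabolism, single genes rose by far more than 2-fold. Nos2 (ENSMUSG00000020826), the inducible nitric oxide synthase, went from 3.40 and 2.55 to 1240.3 and 1285 CPM, a log2 fold change of 8.76 ± 0.11 (SE, adjusted p = 2.2e-24) that was 11.04 after the subtraction described with the dishes, and Slc7a2, which imports its substrate arginine, from 14.8 and 11.9 to 445 and 477 CPM. Acod1, which makes itaconate from the TCA cycle intermediate aconitate, went from 128 and 132 to 9314 and 9261 CPM. Of the 20 other genes of the itaconate and TCA list, Dld alone rose, by 1.08, and Idh1 stood lower by 0.68, under 2-fold. In glycolysis, 5 of 21 rose and 2 fell, compared with 15.9% and 16.3% of all genes tested. The entry steps Slc2a1 and Hk2 reached 123 and 127 CPM from 44.3 and 50.4 CPM and 213 and 218 CPM from 41.5 and 40.8 CPM, whereas Gapdh was higher by 0.36 (-0.37 with scaling by total counts alone) and the log2 fold change of Tpi1 was 0.01. By less than 2-fold, 12 of the 21 itaconate and TCA genes and 10 of the 21 glycolysis genes were higher at an adjusted p under 0.05. The medians of the TCA and glycolysis lists, 0.20 and 0.41, turned to -0.53 and -0.32 with scaling by total counts alone.

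Single lipid genes also changed by far more than 2-fold. Ptgs2 (COX-2), which commits arachidonic acid to prostaglandins, rose from 13.04 and 10.6 to 3214 and 3754 CPM, and Ptges, which completes prostaglandin E2, from 2.36 and 2.81 to 33.6 and 34.6 CPM. Hpgd, which breaks prostaglandins down, fell from 49.0 and 51.4 to 17.50 and 24.6 CPM. Of 22 sterol genes 4 rose and 1 fell, compared with 15.9% and 16.3% of all genes tested. A further 9 sterol genes were higher and 6 lower by less than 2-fold at an adjusted p under 0.05. Ch25h, which makes 25-hydroxycholesterol, rose from 2.02 and 1.56 to 165 and 206 CPM, and Dhcr7, which catalyzes a last step of cholesterol synthesis, fell by 1.28 on the log2 scale. The sterol median of 0.40 turned to -0.32 with scaling by total counts alone. Among 14 LXR targets and lipid efflux genes none rose and 1 fell, the desaturase gene Scd2, from 501 and 497 to 80.1 and 57.5 CPM, and Abca1 stood at 71.9 and 78.3 CPM against 105 and 83.4 CPM.

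Of 15 NRF2 and antioxidant genes 7 rose. Sod2, the mitochondrial superoxide dismutase, went from 100.4 and 108 to 1204 and 1308 CPM and the cystine transporter gene Slc7a11 from 20.3 in both to 230.4 and 276 CPM, while Hmox1, a classical NRF2 target, stood at 331 CPM in both vehicle libraries and 304 and 340.0 CPM after. The list's median of 0.40 turned to -0.33 with scaling by total counts alone. In iron handling, Slc40a1 (ferroportin), the only known cellular iron exporter, fell from 50.2 and 49.98 to 12.9 and 12.1 CPM, and Lcn2, which captures bacterial siderophores, rose by 6.75 on the log2 scale. The metallothionein gene Mt2 went from 9.87 and 8.43 to 225 and 204 CPM.

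Among 13 inflammasome genes, 6 rose and 2 fell. The sensor gene Nlrp3 rose from 56.0 and 56.6 to 601 and 629 CPM and Casp1, the protease that it activates, from 73.8 and 74.3 to 367 and 384 CPM, whereas the sensor gene Nlrp1b fell from 23.6 in both to 2.87 and 3.09 CPM. Of 23 BCL2 family and survival genes 11 rose and 2 fell, with a median of 0.67 that turned to -0.05 with scaling by total counts alone. Cflar, which blocks caspase-8, went from 117 in both to 1522 and 1597 CPM. Bcl2 fell by 1.69 on the log2 scale, and Bmf, a proapoptotic member of the BH3-only class and 1 of the 12 deepest falls, went from 16.7 and 16.5 to 0.462 and 0.200 CPM. The Bcl2a1 copies are near-identical and RSEM divides shared reads between them, so their single values are uncertain; they rose by 3.996 (Bcl2a1b) to 5.79 (Bcl2a1d). The same holds for H2-Q6 and H2-Q7, for Ifit3 and Ifit3b, and for other close paralogs.

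The transcription factors that define the macrophage split almost evenly, 8 of 25 rising and 9 falling, with a median of 0.38 that turned to -0.35 with scaling by total counts alone. Among those that rose, Tfec, a relative of MITF, went from 16.7 and 17.1 to 227 and 239 CPM, Cebpd, which amplifies the TLR4 response, from 23.1 and 26.1 to 294 and 304 CPM, and Irf8 from 88.0 and 91.9 to 379 and 363 CPM. Among those that fell, Cebpa, a myeloid lineage factor, went from 23.01 and 23.4 to 2.10 and 2.54 CPM and Tfeb, the regulator of lysosome genes, from 22.7 and 21.5 to 1.75 and 1.05 CPM. Spi1 (PU.1) rose by 1.06 on the log2 scale, to 364 and 354 CPM, and by 0.34 with scaling by total counts alone. Of 28 lysosome genes, 1 rose, the cathepsin gene Ctsc, from 205 in both to 1146 and 1244 CPM, and none fell.

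Phagocytic receptors changed in part. Of 26 efferocytosis and scavenger receptor genes 6 rose and 1 fell, compared with 15.9% and 16.3% of all genes tested. Axl and Mertk, receptor kinases that bind dying cells, rose from 145 and 142 to 412 and 439 CPM and from 19.0 and 23.9 to 48.4 and 50.8 CPM. The hemoglobin scavenger receptor gene Cd163 fell from 4.95 and 6.57 to 1.85 and 1.70 CPM. The related Tyro3 had 1 count over both vehicle libraries and 71 over both LPS libraries, a ratio of 131 (95% counting interval 22.7 to 5232). The list's median of 0.09 turned to -0.63 with scaling by total counts alone. Of 23 genes for proteases, matrix and coagulation 13 rose and 2 fell. Plau (urokinase), a plasminogen activator, fell from 69.5 and 68.3 to 17.8 and 16.01 CPM and the collagenase gene Mmp13 rose from 8.59 and 7.32 to 866 and 922 CPM. Adamts4, an aggrecan protease gene, rose from 0.135 and 0.163 to 56.6 and 65.6 CPM.

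**Figure D3:**
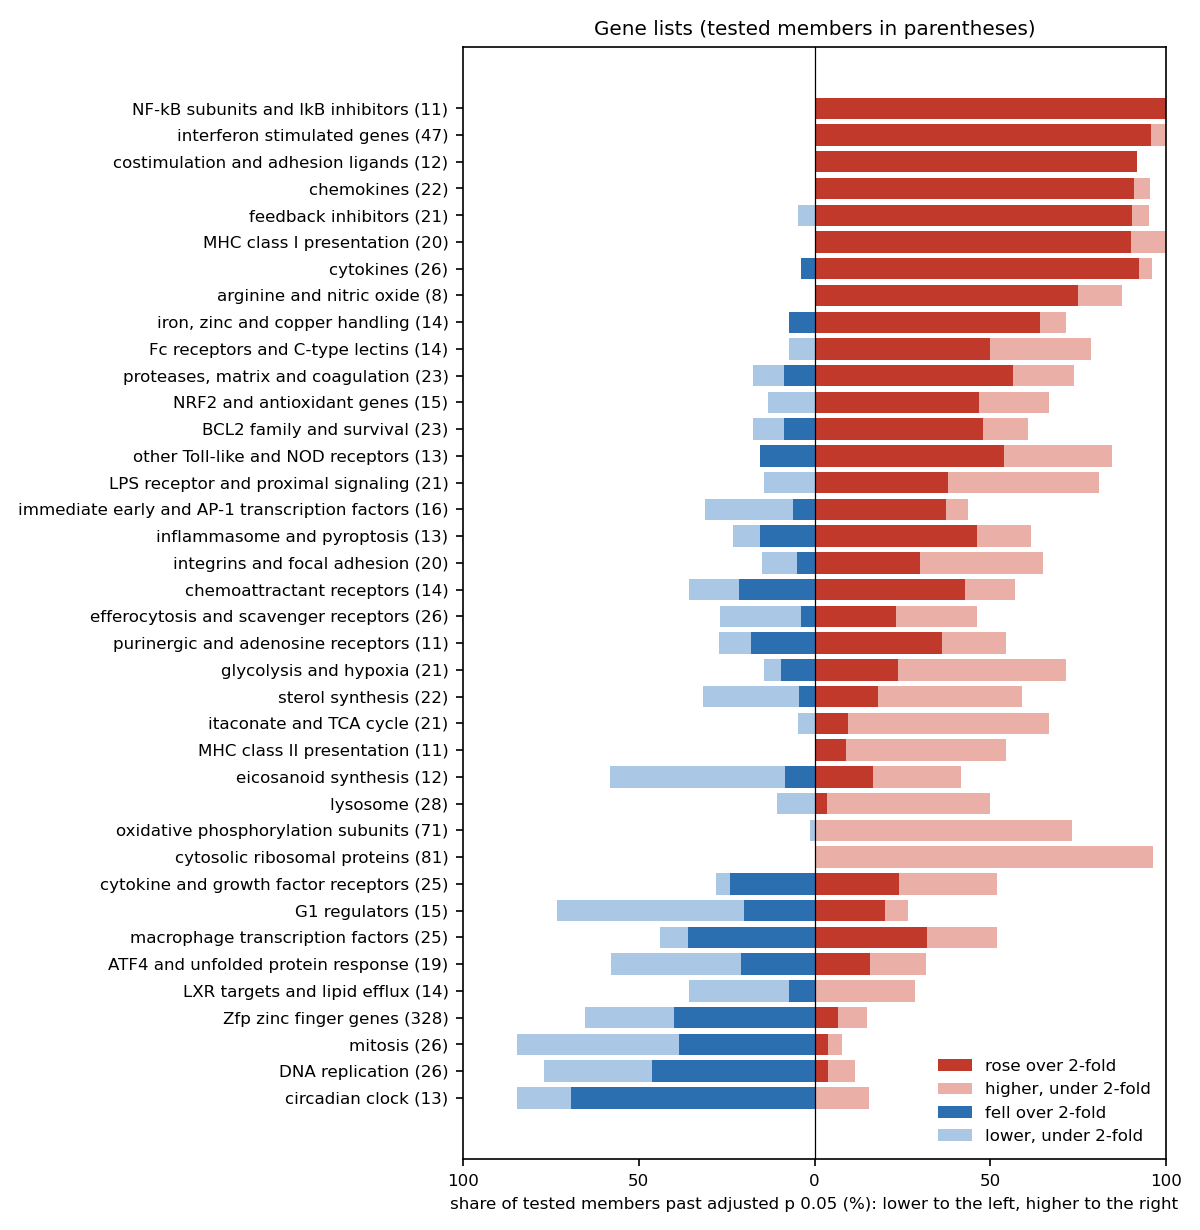
Share of the tested members of each gene list that rose above 2-fold (dark red), were higher by less (light red), fell above 2-fold (dark blue) or were lower by less (light blue), in percent of the number tested, which is given in parentheses. NF-kB and IkB genes are at the top with 11 of 11 risen, and the circadian clock genes at the bottom with 9 of 13 fallen.

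Cell cycle genes stood lower without being shut off. Of 26 DNA replication genes 12 fell and 1 rose, and of 26 mitosis genes 10 fell and 1 rose, with medians of -0.66 and -0.78 on the log2 scale. Cdc6, which loads the replicative helicase, fell from 15.9 and 17.53 to 1.13 and 1.45 CPM, and the helicase genes Mcm2, Mcm3, Mcm4 and Mcm7 fell by 1.05 to 1.44 (Mcm4 by 0.99 without M-noTC replicate 1), but Mcm10 rose from 30.2 and 30.7 to 70.3 and 73.5 CPM. Kif23, a kinesin of cytokinesis, fell from 65.4 and 62.8 to 12.8 and 13.2 CPM, while Mki67 was higher by 0.22. Upstream of both, E2f2, a transcription factor of the G1 to S step, fell from 54.7 and 52.2 to 2.72 and 1.995 CPM and Ccnd1 (cyclin D1) from 217 and 205 to 52.6 and 43.8 CPM, and Cdkn1a (p21), the inhibitor of cyclin dependent kinases, rose from 114 in both to 1501 and 1562 CPM.

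Of 13 circadian clock genes 9 fell and none rose, with a median of -1.47. Per1, a core repressor of the clock, went from 12.7 and 14.2 to 1.49 and 1.15 CPM, Per2, Per3 and Nr1d1 fell by 3.09 to 3.29 on the log2 scale, and the output factor gene Tef went from 34.0 and 35.8 to 6.11 and 6.63 CPM. Dbp had 186 counts over both vehicle libraries and 2 over both LPS libraries, 50.5-fold lower with a 95% counting interval of 13.8 to 420. The activator gene Clock stood at 51.4 and 50.4 CPM against 81.8 and 82.4 CPM, higher by 0.69, and lower by 0.04 with scaling by total counts alone.

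The zinc finger genes named Zfp, most of which encode DNA binding proteins, leaned the same way. Of 328 tested, 131 fell and 22 rose, with a median of -0.76. Zfp36l2, which binds RNA and promotes its decay, fell from 298 and 308 to 13.3 CPM in both, while its relative Zfp36, 1 of the feedback inhibitors, rose from 62.1 and 63.5 to 620.1 and 622 CPM. Genes for ribosomes and respiration moved within a narrow range. Of 81 cytosolic ribosomal protein genes none passed 2-fold and 78 were higher by less, with a median of 0.36, and their sum went from 13794 and 14178 CPM to 17604 and 18221 CPM; of 71 oxidative phosphorylation subunit genes 52 were higher by less than 2-fold, with a median of 0.36. Both medians turned to -0.36 with scaling by total counts alone.

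Outside these lists, the 12 largest rises included Shisa3 (ENSMUSG00000050010), an antagonist of Wnt and FGF signaling, at 60.3 and 61.8 CPM from 0.101 and 0.116 CPM, which gave the largest log2 fold change of the 12, 9.05 ± 0.19 (SE); its vehicle level rests on 8 counts over both libraries and was 0 after the subtraction described with the dishes, where the fold could no longer be measured. The endothelial lipase gene Lipg rose from 0.606 and 0.650 to 263 and 250.4 CPM, the protease inhibitor gene Serpina3f to 103 and 113 CPM from 0.337 and 0.232 CPM, and Itgb8, an integrin chain that activates TGF-beta, to 75.7 and 84.9 CPM from 0.337 and 0.209 CPM. The 12 deepest falls were led by Cnr2 (ENSMUSG00000062585), the cannabinoid receptor of immune cells, which went from 38.0 and 35.1 to 0.308 and 0.349 CPM, a log2 fold change of -6.77 ± 0.16 (SE). Lpar5, a lysophosphatidic acid receptor gene, fell from 14.7 and 14.4 to 0.154 and 0.200 CPM, Cd300lb, an activating receptor of myeloid cells, from 230.2 and 228 to 4.93 and 4.29 CPM, and Lyl1, a blood lineage transcription factor gene, from 47.5 and 47.9 to 1.39 and 1.15 CPM. Sox4 went from 5.53 and 5.32 CPM to no count in either LPS library, at least 35.7-fold lower.

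To find where this response differed with the dish, it was compared with that of M-TC cells by testing the difference of the 2 responses in the same fit; no library is shared between them. Of the 1984 genes that rose in M-noTC, 1818 (91.6%) also rose in M-TC, which is 84.0% of the 2165 there, and of the 2042 that fell 1751 (85.7%) fell in M-TC, 75.6% of the 2315 there, while 4 went opposite ways. The difference passed an adjusted p under 0.05 for 1325 genes (10.6%), of which 156 differed by more than 2-fold. The count of 1325 fell to between 736 and 878 without M-noTC replicate 1 or 2, M-TC replicate 1 or 2, or M-noTC-LPS replicate 1, fits that leave a group with 1 library whose spread is taken from the other groups. Among genes that rose in M-noTC, the rise was smaller than in M-TC for 411 and larger for 79, and among the 2331 that rose in either group it was smaller for 538 and larger for 79.

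A lower response in M-noTC than in M-TC was called for many inflammatory genes. It covered 13 of 22 chemokine, 12 of 26 cytokine and 14 of 21 feedback inhibitor genes, compared with 936 of all 12514 genes tested. Other lists held it as well, with 10 of 16 immediate early, 11 of 26 DNA replication and 7 of 20 MHC class I genes. With the deposited counts, none of these chemokines or cytokines responded more, and 1 of these feedback genes, Socs2, did. Il6 rose by 8.00 on the log2 scale in M-noTC and 15.89 in M-TC, where its vehicle mean was 0.0199 CPM, and its LPS means were alike at 1325 and 1544 CPM in M-noTC against a mean of 1493 CPM in M-TC. Il1b rose by 6.66 against 11.11, from 14.3 and 12.1 CPM compared with a mean of 0.940 CPM, and to 1274 and 1378 CPM compared with a mean of 2102 CPM. The gap thus lay mainly in the vehicle libraries for both genes. Over the 411 genes, the vehicle mean was higher in M-noTC than in M-TC for 357 and the LPS mean lower for 341, with median log2 differences of 0.25 and -0.22 (on CPM plus 0.5).

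The M-noTC vehicle libraries hold a small amount of transcripts that are abundant in other libraries and that M-TC vehicle libraries almost lack. For 19 genes under 1 CPM in M-TC vehicle cells that averaged at least 100 CPM over 10 other libraries (the 8 with LPS and the 2 of GM-noTC), the excess of M-noTC over M-TC vehicle was a median of 0.600% of that average, 0.694% in replicate 1 and 0.479% in replicate 2. Single genes of the 19 ranged from 0.0084% (Rbp4) to 0.845% (Ccl17). The matching median for GM-noTC over GM-TC was 0.675%, over 15 genes. These values move with the differences between the dishes, and their part in them was not tested further than by the following repeat. When 0.600% of the mean of those libraries was subtracted from the M-noTC vehicle libraries, and 0.675% from the GM-noTC ones, 1249 differences passed instead of 1325, and 350 of the 411 smaller rises still did. The inflammatory lists lost more. A lower response was then called for 4 of 22 chemokine, 6 of 26 cytokine and 11 of 21 feedback inhibitor genes. A higher one was called for no chemokine, 3 cytokine and 2 feedback inhibitor genes. Single genes moved much more. Il6, Nos2, Cxcl1 and Il12b were among the 19 genes that set this share, so their differences were bound to move toward 0. Il1b, Tnf and Ptgs2 were not among them. Their differences were bound to shrink too, since the share was taken from M-noTC vehicle and not from M-TC vehicle. Only the size of their shift was not set by these genes themselves. The difference of Il6 went from -7.89 to -5.03 (adjusted p = 0.044), that of Il1b from -4.45 to -1.62 (adjusted p = 0.020), that of Nos2 from -2.52 to -0.24 (adjusted p = 0.87) and that of Cxcl1 from -3.41 to -0.57 (adjusted p = 0.81). The difference of Il12b, -10.58 against a vehicle group without a count, went to -5.73 (adjusted p = 0.19). The smaller rises of Tnf (-1.13 to -0.70, adjusted p = 0.0039) and of Ptgs2 (-3.18 to -1.70, adjusted p = 0.00054) were still called. The responses themselves were still there, with 2024 genes rising and 2033 falling after the subtraction, but the fold was more than 1.5 times larger for 89 of the 1984 that rose and for none of those that fell did it move that far. These directions were built in. The share came mostly from LPS libraries and was taken from vehicle libraries only, so rises were bound to grow and falls could hardly move. Among these 89 were Il6 (8.00 to 10.87), Il1b (6.66 to 9.49), Cxcl1 (8.11 to 10.95), Il27 (8.70 to 11.67) and Socs3 (7.85 to 9.38), so the folds given above for genes nearly silent in vehicle depend on this share. Il6, Cxcl1 and Il27 were among the genes that set it.

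**Figure D4:**
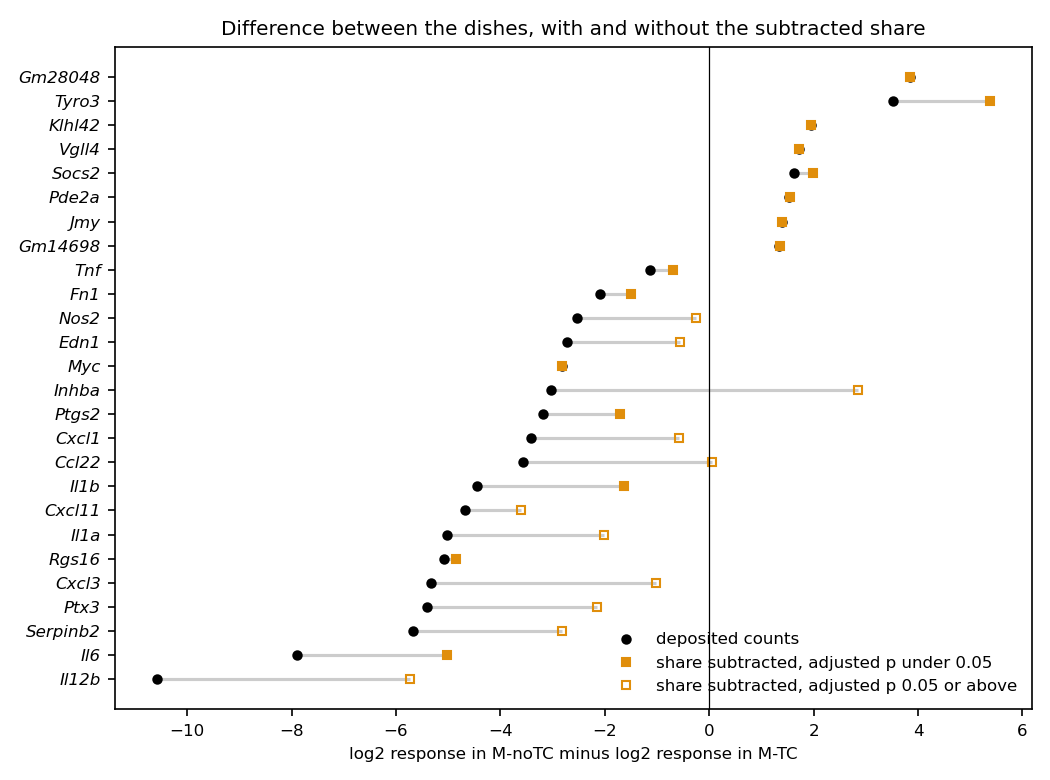
Difference between the LPS response in M-noTC and in M-TC on the log2 scale (horizontal axis) for 26 named genes whose difference passed the threshold, with black circles from the deposited counts and orange squares after the share of the other libraries was subtracted, filled where the adjusted p was still under 0.05. The values of Il12b, Il6, Cxcl3 and Ccl22 move toward 0, that of Inhba crosses it, and those of Myc, Jmy and Vgll4, from which little was subtracted, stay in place. Il12b, Il6, Cxcl3, Ccl22 and Inhba were among the 19 genes that set the share.

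The differences of Myc, Klhl42, Vgll4, Jmy and Pde2a from M-TC moved by at most 0.012 on the log2 scale with this subtraction. It could hardly move them, since these genes were not abundant in the other libraries and little was taken from them. The vehicle mean of Jmy in M-noTC, for example, went from 12.80 to 12.77 CPM. Myc stood lower upon LPS in M-noTC by 0.81 on the log2 scale and rose in M-TC by 2.02, from 14.4 and 16.1 CPM and a mean of 4.51 CPM in vehicle to 8.21 and 9.28 CPM and a mean of 18.3 CPM, a difference of -2.83 before and -2.82 after the subtraction. The falls of Klhl42, Vgll4 and Jmy were shallower in M-noTC than in M-TC by 1.95, 1.73 and 1.39: Jmy, a regulator of actin and p53, went from 13.1 and 12.5 to 2.10 and 1.80 CPM in M-noTC and from a mean of 20.2 to 1.20 CPM in M-TC. All 3 lost their call without the library M-TC-LPS replicate 1, with differences of 1.18 for Klhl42 (adjusted p = 0.086), 1.87 for Vgll4 (adjusted p = 0.095) and 0.97 for Jmy (adjusted p = 0.055), and that of Vgll4 also went to 0.89 without M-noTC-LPS replicate 1 (adjusted p = 0.48). Pde2a, a cyclic nucleotide phosphodiesterase gene, rose from 6.20 and 6.34 to 13.6 and 16.6 CPM in M-noTC, while its means in M-TC were 15.998 and 13.1 CPM. Among metabolic lists, 11 of 22 sterol genes, 9 of 21 glycolysis genes and 8 of 15 NRF2 genes had a lower response in M-noTC and none a higher one, with the same counts after the subtraction. Over all 12514 genes tested, the response was lower for 936 and higher for 389 before it. Slc7a11 reached 230.4 and 276 CPM in M-noTC and a mean of 675 CPM in M-TC from 20.3 in both and a mean of 20.8 CPM, a difference of -1.38 that was -1.08 after the subtraction.

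The response of GM-noTC cells, matured with GM-CSF on the same dish, differed far more. Of the 1984 genes that rose in M-noTC, 1299 (65.5%) also rose there, 79.0% of its 1644, and of the 2042 that fell 1114 (54.6%) fell there, 70.5% of its 1581, while 29 went opposite ways. The difference passed for 4528 genes (36.2%), 1291 of them by more than 2-fold. Of the 2329 genes that rose in either group the rise was larger in M-noTC for 1065 and smaller for 407, and of the 2509 that fell in either the fall was deeper for 855 and shallower for 244. Over all 4528 the log2 response was higher in M-noTC for 2418 and lower for 2110, and past 2-fold for 615 and 676. After the subtraction 4515 differences passed.

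Interferon stimulated genes responded less in M-noTC than in GM-noTC for 39 of 47 and more for 6. The examples named here started higher: Isg15, a ubiquitin-like protein gene, went from 28.3 and 28.8 to 353 and 374 CPM in M-noTC and from a mean of 3.49 to 373 CPM in GM-noTC, and Irf7, which amplifies interferon, from 90.9 and 103 to 729 and 804 CPM against a mean of 6.21 to 233 CPM. Thus Isg15 ended at a like level, and Irf7 at a higher one, after smaller rises of 3.67 against 6.73 and 2.98 against 5.22. Cytokines divided, with 8 responding less and 8 more. Il23a reached 2.57 and 1.95 CPM in M-noTC and a mean of 62.5 CPM in GM-noTC, a difference of -4.32 that was as large after the subtraction, at -4.79, but could then not be called (adjusted p = 1.0), its M-noTC vehicle level being 0.

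Feedback inhibitors, chemokines and sterol genes leaned the other way, with a higher log2 response in M-noTC for 16 of 21, 15 of 22 and 15 of 22. For sterol genes, whose median was 0.40 in M-noTC and -0.19 in GM-noTC, this covers rises in M-noTC as well as falls that were shallower there. Socs3 rose by 7.85 in M-noTC and 4.19 in GM-noTC, where its vehicle mean was already 26.7 CPM, and Cish, a target of GM-CSF signaling through STAT5, by 6.84 from 0.539 and 0.557 CPM against 1.78 from a mean of 60.3 CPM. Some rises were large in M-noTC and small in GM-noTC from a low level in both: Lipg reached 263 and 250.4 CPM against a mean of 1.77 CPM, and Mycl, a relative of Myc, 86.4 and 85.9 CPM against 5.93 CPM. Cebpd rose by 3.60 against 1.19, Tfec by 3.78 against 1.03 and Pfkfb3, which speeds glycolysis, by 2.26 against 0.26. Klf4 was higher by 0.52 in M-noTC and fell by 3.37 in GM-noTC from a mean of 71.2 to 6.86 CPM. The iron exporter gene Slc40a1, which fell by 2.002 in M-noTC, was higher by 0.23 in GM-noTC. Among zinc finger genes the response was lower in M-noTC for 123 of 328 and higher for 19, with medians of -0.76 in M-noTC and -0.26 in GM-noTC.

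**Figure D5:**
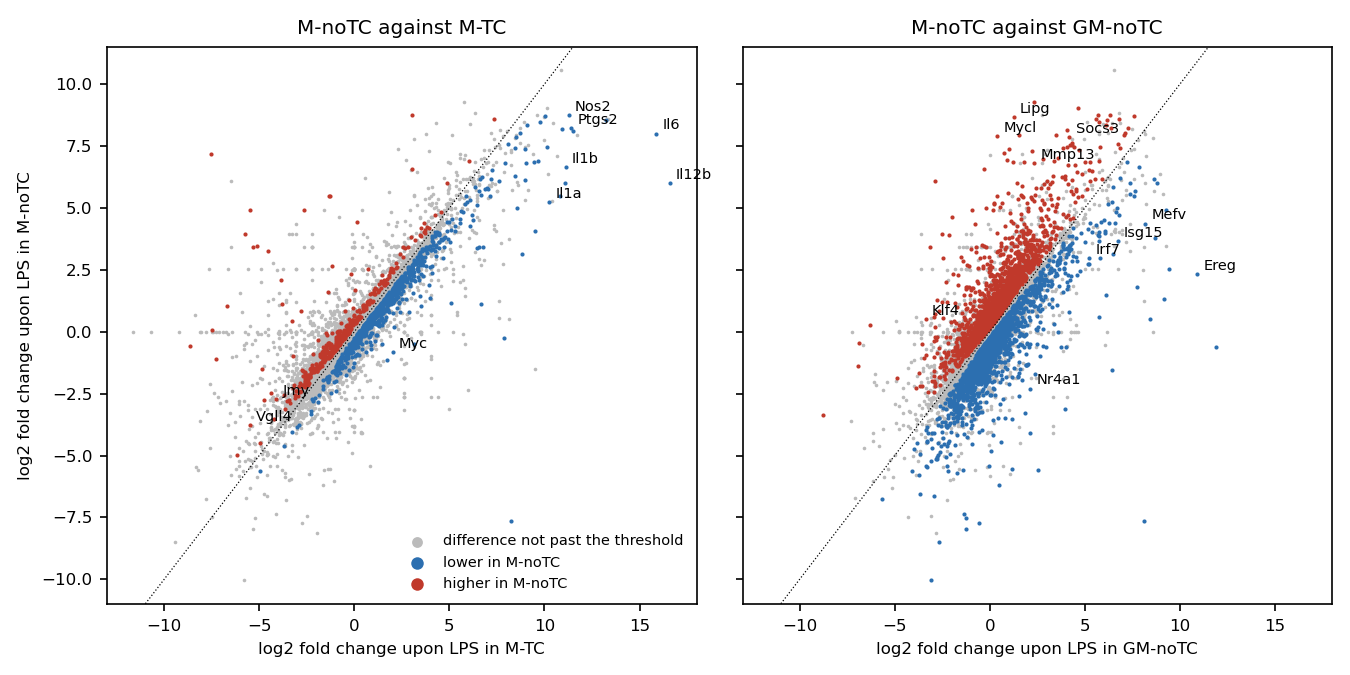
Log2 fold change upon LPS in M-noTC (vertical axis) against that in M-TC (left) and in GM-noTC (right), 1 point per tested gene, with the difference past the threshold and lower in M-noTC in blue, higher in red and the rest in grey; the dotted line marks equal responses. Points hug the line on the left, where 1325 genes are coloured, and spread around it on the right, where 4528 are.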

How the data were processed

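Gene counts of 16 libraries (8 groups of 2) were analysed. The authors sequenced poly(A) RNA, aligned reads with HISAT2 and quantified genes with RSEM, whose expected counts they deposited; the submitters' processing notes also name fastp 0.18.0, Bowtie2 2.2.8 and StringTie 1.3.1, and the genome build is not given in the sources used here. The deposited expected counts were rounded to whole numbers, filtered with filterByExpr and tested with edgeR 4.0.16 (R 4.3.3) by the quasi-likelihood test on TMM scaled counts, all 16 libraries sharing 1 estimate of the spread. Rose and fell mean a Benjamini-Hochberg adjusted p under 0.05 and a fold above 2, and differences between responses an adjusted p under 0.05. Levels are CPM with TMM scaling. DESeq2 1.42.0 was an alternative. An exact permutation test of 2 against 2 libraries cannot go below a two-sided p of 0.333, so none was used.

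On counts simulated for this comparison over 12514 genes, 166 of 200 genes changed 3-fold were recovered, with 3 false calls. Only these 200 genes were changed, evenly up and down. The simulation therefore cannot speak to false calls under the large shift of counts between the real groups. Members of the gene lists were named freely; outside them, the 12 largest rises and 12 largest falls at 10 CPM or more, the 10 most abundant rises per kilobase of exon (GENCODE vM21 lengths) and, for each comparison of responses, the 6 largest differences per direction. Groups, lists and rules were chosen with earlier results of these data known. Promoters came from RefSeq (GRCm38.p6, matched by symbol to 10012 genes). Values of some list members are not reported here.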

Additional observations from a re-analysis of the deposited data

Results flagged for a closer look

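The difference between the response of M-noTC and that of another group was tested gene by gene and passed for 1325 genes against M-TC and for 4528 against GM-noTC. The named genes among them follow as the log2 response in M-noTC minus that in the other group, each with an adjusted p under 0.05 in edgeR's quasi-likelihood test. Where a group had no count in vehicle, as M-TC did for Il12b, Rgs16 and Cxcl11, the size depends on the prior count of the fit and is not a measured fold.

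Against M-TC the cytokine genes differed by -10.58 (Il12b), -7.89 (Il6), -5.02 (Il1a), -4.45 (Il1b), -3.03 (Inhba), -2.73 (Edn1) and -1.13 (Tnf). Chemokine genes differed by -5.32 (Cxcl3), -4.68 (Cxcl11), -3.56 (Ccl22) and -3.41 (Cxcl1). The inhibitor gene Serpinb2 differed by -5.68, the pentraxin gene Ptx3 by -5.41, Rgs16 by -5.08, Ptgs2 by -3.18, Myc by -2.83, Nos2 by -2.52 and Fn1 by -2.10. After 0.600% of the mean of the other libraries was subtracted, Serpinb2 stood at -2.82 (adjusted p = 0.20), Ptx3 at -2.14 (0.37), Cxcl3 at -1.01 (0.65), Il1a at -2.01 (0.22), Edn1 at -0.56 (0.73) and Cxcl11 at -3.61 (0.20), none of which was still called. All of these except Cxcl11 were among the genes that set this share. Their shrinking was built in, and so was that of Cxcl11, since the share was taken from M-noTC vehicle and not from M-TC vehicle. Responses higher in M-noTC were those of Gm28048 (3.85), Tyro3 (3.53), Klhl42 (1.95), Vgll4 (1.73), Socs2 (1.63), Pde2a (1.54), Jmy (1.39) and Gm14698 (1.34). The calls of Tyro3, Socs2 and Cxcl11 against M-TC rest on single libraries. That of Cxcl11 was lost without either replicate of M-TC, M-noTC or M-noTC-LPS (adjusted p between 0.058 and 0.18), that of Tyro3 without M-TC replicate 1 or 2, M-TC-LPS replicate 2, M-noTC replicate 2 or M-noTC-LPS replicate 2 (0.052 to 0.22), and that of Socs2 without replicate 1 of any of the 4 groups (0.054 to 0.086). The calls of Gm28048 and Gm14698 were lost without M-TC replicate 1, M-TC-LPS replicate 1, M-noTC replicate 1 or M-noTC-LPS replicate 2, and that of Gm28048 also without M-TC replicate 2 (0.053 to 0.44). The call of Rgs16 was lost without M-TC replicate 1 or 2 or M-noTC replicate 1 or 2 (0.058 to 0.14). Gm28048 varied widely between replicates, at 0 and 3.46 CPM in vehicle and 4.16 and 20.8 CPM upon LPS. With DESeq2 on all 16 libraries, Gm28048 (adjusted p = 0.58), Gm14698 (0.054) and Tyro3 (0.071) were not called against M-TC either.

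Against GM-noTC the responses higher in M-noTC were those of Mycl (7.49), Lipg (7.40), Tyro3 (6.84), Sele (6.40), Cish (5.07), Ccl24 (4.63), Rgs16 (4.57), Mmp13 (4.48), Il33 (4.09), Klf4 (3.89), Socs3 (3.66), Ccl8 (3.62), Socs1 (3.42), Cxcl9 (3.08), Tfec (2.75), Cebpd (2.41) and Pfkfb3 (2.002). The lower ones were those of Gm20388 (-12.55), Ereg (-8.60), Ccl1 (-7.83), Sox4 (-6.94), Slc1a2 (-5.97), Klk1b1 (-5.07), Nr4a1 (-4.43), Il23a (-4.32), Mefv (-3.82), Isg15 (-3.06), Rtp4 (-2.31), Irf7 (-2.25), Slc40a1 (-2.24) and Ifit3 (-2.06). Gm20388 was at 0 and 12.7 CPM in M-noTC and 9.14 and 0 CPM in M-noTC-LPS, and Ereg, Ccl1, Slc1a2 and Klk1b1 stayed under 1 CPM in both M-noTC groups. The call of Il33 was lost without M-noTC replicate 1 (adjusted p = 0.062) or 2 (adjusted p = 0.12), both of which hold no count of it. Those of Sele and Ccl8 were lost without GM-noTC replicate 2 (4.99, adjusted p = 0.14, and 2.91, adjusted p = 0.17), and those of Gm20388, Ereg and Ccl1 without M-noTC replicate 2 (-2.17, -5.52 and -5.27, adjusted p between 0.98 and 1.0). The call of Klk1b1 was lost without M-noTC replicate 1 or either M-noTC-LPS replicate (adjusted p between 0.073 and 0.11) and after the subtraction (-4.68, adjusted p = 0.058), which also ended those of Cxcl9 (1.90, adjusted p = 0.087) and Il23a (-4.79, adjusted p = 1.0).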

How the results depend on the processing

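Scaling by total counts alone moved the counts of genes that rose and fell to 1165 and 4664 and 69 of 531 named fold changes lost their call. The other alternatives kept both counts within 1.5 times (DESeq2 gave 1987 and 1970, no expression filter 2042 and 2027, the 4 libraries alone 1892 and 2132). Leaving out 1 library gave 1908 to 1976 genes that rose, 1929 to 1990 that fell, and 3848 to 4035 that differed from GM-noTC. For differences from M-TC the range was 736 to 1148. The count left the 1.5-fold band without M-noTC replicate 1 (736) or 2 (818), without M-TC replicate 1 (775) or 2 (792), and without M-noTC-LPS replicate 1 (878); 2898 passed at an unadjusted p under 0.05. Subtracting the share of other libraries turned the difference from M-TC of Ccl22 to 0.051 (adjusted p = 1.0) and of Inhba to 2.84 (adjusted p = 0.078), and 9 other of the 26 named differences from M-TC lost their call. Ccl22 and Inhba were among the 19 genes that set this share. None of the 531 called fold changes changed sign under any of these alternatives, while 10 named ones under 2-fold turned negative with scaling by total counts alone. With a replicate block, 1983 genes rose, 2036 fell, 1322 differed from M-TC and 4478 from GM-noTC; the numbers were not taken as pairs, since the labels share only a number and same-numbered libraries deviated together with a correlation of 0.019 over 12514 genes (2 pairs). Depth limits genes under the floor of 3 counts per library: 63 genes that rose had no count in vehicle and 32 that fell had none upon LPS.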

Other observations

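Further gene groups are set here beside the 15.9% and 16.3% of all genes that rose and fell in M-noTC. Of 14 Fc receptor and C-type lectin genes, 7 rose and none fell, with a median log2 fold change of 1.10. Clec4e (Mincle), a receptor for mycobacterial cord factor, rose from 176 and 183 to 3908 and 4313 CPM, and Fcgr2b, the inhibitory Fc receptor, from 26.8 and 27.8 to 191 and 196 CPM. Of 20 integrin and focal adhesion genes 6 rose and 1 fell, with a median of 0.27 that turned to -0.45 with scaling by total counts alone. Itga4, the alpha chain of the VCAM-1 receptor, rose from 344 and 355 to 1964 and 2125 CPM, Itga5, that of a fibronectin receptor, from 94.0 and 90.9 to 333 and 327 CPM, and Itgb3 fell from 15.1 and 15.9 to 6.52 and 6.29 CPM. Zyx (zyxin), a focal adhesion protein gene, rose from 84.0 and 88.3 to 359 and 353 CPM.

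Of 11 purinergic and adenosine receptor genes 4 rose and 2 fell, with a median of 0.26 that turned to -0.47 with scaling by total counts alone. Adora2a, an adenosine receptor that restrains macrophages, rose from 0.707 and 0.488 to 98.9 and 106 CPM, while P2ry6, a UDP receptor gene, fell from 116 and 121 to 32.9 and 33.9 CPM. Of 19 ATF4 and unfolded protein response genes 3 rose and 4 fell, with a median of -0.25, counts near those shares. Ddit3 (CHOP) fell from 8.86 and 9.15 to 2.57 and 3.19 CPM, and the chaperone gene Hspa5 rose from 815 and 824 to 1769 and 1706 CPM, a log2 fold change of 1.08 that was 0.36 with scaling by total counts alone. Of 8 arginine and nitric oxide genes 6 rose, of 12 eicosanoid genes 2 rose and 1 fell, close to the shares over all genes, and of 14 iron, zinc and copper genes 9 rose and 1 fell.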
